A study of Homo sapiens with 12 samples.

Results

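Glutamine was present in 6 RNA libraries and absent from 6 in a crossed nutrient experiment on MDA-MB-231 cells, a long-established line from a human breast adenocarcinoma, and the genes described here are those whose level changed at least 2-fold with glutamine, the same way, both with and without glucose. Of 9270 genes tested, 226 met that rule on the ratios of group means, 162 of them higher and 64 lower with glutamine. The rule was the ratio itself, so these counts describe which genes were chosen and are not a result of a test. Full medium supplied both nutrients, glucose at 25 mM and glutamine at 4 mM, glucose-only medium lacked glutamine, glutamine-only medium lacked glucose, and deficient medium lacked both. Cells had grown in 10% fetal bovine serum, and every test medium, those with glutamine included, carried 3% serum and stayed on the cells for 36 h. Each medium gave 3 libraries, named A, B and C. Full medium is set against glucose-only medium, and glutamine-only medium against deficient medium, so that a positive difference always means higher with glutamine. Nothing in the sources says that A, B and C were cultured separately, so p-values measure the spread between libraries, which may be technical. The experiment is on 1 cell line.

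Glutamine gives cells nitrogen for nucleotides, asparagine and hexosamines, and, after it is turned into glutamate, carbon for the tricarboxylic acid cycle through oxoglutarate. From there, citrate can be exported and cleaved to acetyl-CoA, the building block of fatty acids and sterols, and oxoglutarate is a substrate of dioxygenases that hydroxylate proteins and demethylate DNA and histones. Shortage of amino acids is known to activate the kinase GCN2 and the transcription factor ATF4, whose targets include amino acid transporters, aminoacyl-tRNA synthetases and serine synthesis enzymes. Breast cancer lines of the basal type, to which MDA-MB-231 belongs, are known for their dependence on external glutamine.

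The deposited values are normalized counts, reads per gene divided by a size factor of the library. The libraries held 875033 to 1473587 reads assigned to genes, and 1 read was worth 0.661 to 1.30 normalized counts, so genes near 10 normalized counts rest on few reads. All 8 fixed markers of MDA-MB-231 passed 10 normalized counts, the highest being VIM at 1047. No library reached 10 for any of the 7 markers of fibroblasts, 8 of blood cells and 5 of adipocytes, and the same held for 6 of 10 luminal and 4 of 6 endothelial markers. The exceptions were ERBB3, XBP1, EPCAM and KRT19 among the luminal and KDR and PECAM1 among the endothelial markers. PECAM1, the platelet endothelial adhesion molecule, was itself among the 162 higher genes at no more than 19.7 normalized counts. The read shares of 7 RNA classes were compared, with p adjusted over the 7. Protein-coding genes took 55.4 ± 3.94% of reads in full medium and 44.4 ± 2.51% in glucose-only medium, and 51.1 ± 3.34% in glutamine-only medium and 47.3 ± 4.34% in deficient medium (SD, n = 3 each), an average difference of 7.40 points (two-sided exact permutation within glucose level, p = 0.02, smallest possible 0.005, adjusted p = 0.0467). Mitochondrial ribosomal RNA took 2.34 points less with glutamine (exact permutation p = 0.005, adjusted p = 0.035) and mitochondrial tRNA 4.17 points less (exact permutation p = 0.01, adjusted p = 0.035). The shares of lncRNA (p = 0.29), small nuclear and nucleolar RNA (p = 0.155), misc_RNA (p = 0.36) and mitochondrial mRNA (p = 0.915) did not pass the same exact permutation test. The part of this in the results below was not tested, beyond the values under other scalings given with them.

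In 1 limma fit over all 12 libraries, on log2(value + 1), 3531 genes differed by glutamine averaged over glucose (Benjamini-Hochberg adjusted p below 0.05 over 9270 genes), 1809 higher and 1722 lower, which is 19.5% and 18.6% of the genes tested. With glucose, full medium against glucose-only medium, 1249 genes (13.5%) were higher and 875 (9.44%) lower. Without glucose, glutamine-only medium against deficient medium, 1844 genes (19.9%) were higher and 2000 (21.6%) lower. When each library was scaled to the same total instead, the average split became 3250 higher and 687 lower and the median of all genes moved up by 0.24 on the log2 scale. Under quantile scaling the split with glucose became 1038 higher and 1075 lower. The 162 higher genes that met the 2-fold rule were 1.75% of genes tested and the 64 lower ones 0.69%, and with equal totals the rule chose 326 higher and 32 lower genes. Groups of 3 libraries did not overlap at either glucose level in 149 of the 162 and in 48 of the 64. Among all 9270 genes tested this held for 771 higher and 502 lower ones. The same values chose the genes, so a high share without overlap is partly built in and is no test. In bulk RNA, fewer cells in a state and less RNA per cell cannot be told apart. These values are reads divided by a size factor of each library, so total RNA per cell is not measured.

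**Figure D1:**
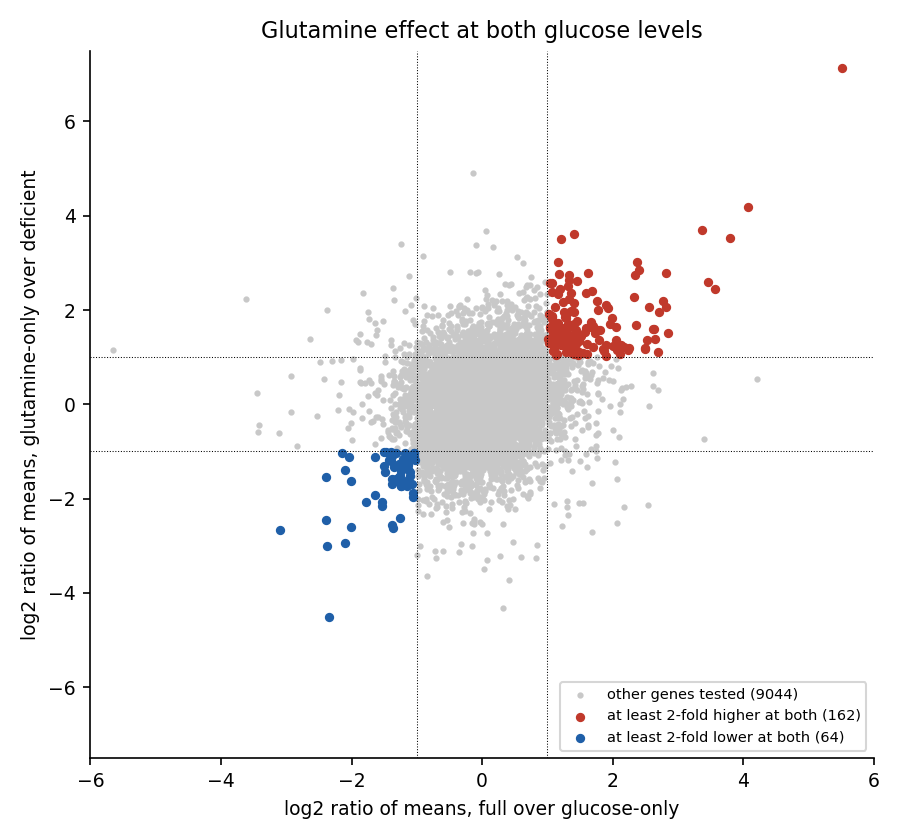
Each point is a gene, placed by the log2 ratio of group means of full to glucose-only medium (x axis) and of glutamine-only to deficient medium (y axis), with the 2-fold limits drawn as lines and the 226 chosen genes coloured. The 162 higher genes fill the upper right corner and the 64 lower genes the lower left, while 64 further genes passed 2-fold at both glucose levels in opposite directions. The 10 genes with a group mean of 0, 5 of them chosen, have no finite ratio and are not drawn.

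The 2-fold limit cut through a continuous range. Among genes with a mean of at least 50 normalized counts over 12 libraries, the higher genes just inside it were CSF1 with a smaller ratio of 2.05, and ASPM and H2AC11 with 2.10. SC5D at 2.00, POGLUT3 at 1.99 and ERO1A at 1.98 lay just outside. On the lower side CAPRIN2 at 2.04, USP36 at 2.19 and MT-TY at 2.19 lay inside, and MYC at 1.98, EGFR at 1.96 and SPIRE1 at 1.93 outside, written as glutamine-free over glutamine-containing medium. The chosen higher genes ranged in mean over all libraries between 4.65 and 943 normalized counts with a median of 20.7, and the lower ones between 4.08 and 266 with a median of 14.4. In 7 of the higher and 11 of the lower genes a group of 3 libraries held 3 reads or fewer, so their ratios are poorly bounded. The median ratio of the higher genes was 2.65 with glucose and 2.92 without. A choice on the libraries of 2 letters was looked at in the library of the letter left out, a description added after the values were seen. Ratios in the libraries left out had 1 added to each value, unlike those of the choice. The filter on low values had used all 12 libraries, and those of a medium may be technical repeats, so this is no independent test. Depending on the letter, 171 to 186 higher genes were then picked, of which 90.2% to 95.3% were higher at both glucose levels in the libraries left out, against 27.4% to 28.7% of all genes tested, and 43.0% to 56.7% passed 2-fold there, against 1.83% to 2.24% of all genes tested. Of 68 to 81 lower genes, 74.1% to 81.9% kept their direction, against 26.4% to 27.2% of all genes, and 22.2% to 32.4% passed 2-fold, against 0.766% to 1.06% of all genes.

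Genes of cholesterol synthesis and its control were higher with glutamine at both glucose levels. Of 21 tested members of that list, 18 rose and none fell on average, with a median log2 difference of 1.51, beside -0.0014 for all genes tested; 17 rose with glucose and 18 without, and 13 met the 2-fold rule. The list covers the mevalonate pathway, the later sterol steps and the genes that the sterol-sensing transcription factor SREBP-2 controls. SREBF2 encodes SREBP-2 itself, and INSIG1 encodes the endoplasmic reticulum protein that holds SREBP precursors back. Their promoters are shown because both genes were among the higher ones. Each is the 250 bases before the RefSeq start of the gene on GRCh38.p14, plus strand, 5′ to 3′, at chr22:41832855-41833104 for SREBF2 and chr7:155297628-155297877 for INSIG1. Capitals mark a sterol element match in SREBF2, 133 bases before the start, and a CCAAT box, read as ATTGG on this strand, in INSIG1, 170 bases before the start.
SREBF2: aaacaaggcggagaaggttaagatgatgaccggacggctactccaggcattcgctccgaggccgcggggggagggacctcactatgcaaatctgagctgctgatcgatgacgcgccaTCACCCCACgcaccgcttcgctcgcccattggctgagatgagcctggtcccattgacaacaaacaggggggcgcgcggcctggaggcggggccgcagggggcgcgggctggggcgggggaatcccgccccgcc
INSIG1: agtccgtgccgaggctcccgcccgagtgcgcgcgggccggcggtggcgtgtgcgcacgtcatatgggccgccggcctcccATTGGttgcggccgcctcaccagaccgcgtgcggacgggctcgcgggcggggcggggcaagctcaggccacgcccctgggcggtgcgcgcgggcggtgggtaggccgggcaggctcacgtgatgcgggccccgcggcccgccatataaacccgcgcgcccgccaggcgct
The sterol element was searched as TCACNCCAC on both strands. It was present in 4 of 161 promoters of higher genes (2.48%: JUP, OAS3, RNF182 and SREBF2), in 1 of 59 of lower genes (1.69%), in 97 of 10739 of tested genes (0.903%) and in 310 of 35116 in the whole table (0.883%). The CCAAT box, searched as CCAAT on both strands, was present in 77 of the 161 (47.8%), in 17 of the 59 (28.8%), in 33.4% of promoters of tested genes and in 32.0% of all promoters. It was in 8 of 10 promoters of the chosen sterol genes (80%) and equally in 16 of 20 of all tested members of their list (80%). The sterol element was in 1 of those 10 and 1 of those 20. The table matched 119 of the 162 higher and 44 of the 64 lower genes, some with several starts; FASN is not in it.

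SREBF2 had 115, 105 and 94.5 normalized counts in full medium, against 34.9, 44 and 47 in glucose-only medium, and 111, 103 and 107 in glutamine-only medium, against 27.3, 42.3 and 28.7 in deficient medium. Every library with glutamine was above every library without it. The average log2 difference was 1.51 ± 0.11 (SE, adjusted p = 9.9e-12). INSIG1 had 212, 236 and 233 normalized counts in full medium, against 13.2, 24.1 and 20 in glucose-only medium, and 277, 269.7 and 293 in glutamine-only medium, against 41.7, 50.7 and 62.1 in deficient medium. The libraries without glutamine stayed at or below 62.1, under the lowest value with glutamine of 212. The average difference was 2.99 ± 0.11 (SE, adjusted p = 2.5e-18), and it was larger with glucose than without by 1.10 on the log2 scale with adjusted p = 0.0005. HMGCS1, the synthase that feeds the mevalonate pathway, averaged 66.5 ± 5.93 normalized counts in full medium and 11.8 ± 1.24 in glucose-only medium, and 57.1 ± 10.6 in glutamine-only medium and 25.0 ± 2.87 in deficient medium (SD, n = 3 each). Others of the chosen sterol genes were ACAT2, SQLE, MSMO1, HSD17B7, EBP, DHCR7 and the sterol carrier gene STARD4. HSD17B7 rested on 33 reads in full medium and 10 in glucose-only medium, whose libraries overlapped. Its effect with glucose did not pass the limma test (adjusted p = 0.165). Of ACAT2's exon length, 52% overlaps a gene on the other strand, and reads of both cannot be told apart where strand was not used in counting. PMVK, MVD and TM7SF2 did not pass the test.

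Of 19 tested genes of fatty acid and triglyceride synthesis, 13 rose on average and none fell, with a median log2 difference of 0.83, and FADS1, FADS2, FASN, SCD and SCD5 met the rule. SCD encodes stearoyl-CoA desaturase, which makes monounsaturated fatty acids. SCD had 697, 683 and 642 normalized counts in full medium, against 122, 116 and 152 in glucose-only medium, and 948, 1031 and 991 in glutamine-only medium, against 126, 118 and 124 in deficient medium. The 6 libraries without glutamine lay close together at both glucose levels, and glutamine-only medium was the highest of the 4. The average difference was 2.69 ± 0.07 (SE, adjusted p = 8e-22), larger without glucose (interaction -0.62 on the log2 scale with adjusted p = 0.0016). FADS2, the desaturase of the first step to long polyunsaturated fatty acids, and its chromosome 11 neighbour FADS1 were both higher. FADS2 had 197, 196 and 167 normalized counts in full medium, against 34.9, 33.5 and 37.6 in glucose-only medium, and 184, 173 and 163 in glutamine-only medium, against 20.8, 30.2 and 21.7 in deficient medium. FADS1 averaged 219.7 ± 9.21 in full medium and 92.4 ± 10.6 in glucose-only medium, and 257 ± 6.71 in glutamine-only medium and 84.1 ± 5.35 in deficient medium. FASN encodes fatty acid synthase. FASN had 283, 297 and 264 normalized counts in full medium, against 112, 124 and 111 in glucose-only medium, and 399, 415 and 418 in glutamine-only medium, against 146, 146 and 138 in deficient medium. Neither the FASN nor the FADS2 difference passed the test of a difference between glucose levels (-0.23 on the log2 scale with adjusted p = 0.22 for FASN and -0.44 on the log2 scale with adjusted p = 0.1 for FADS2).

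**Figure D2:**
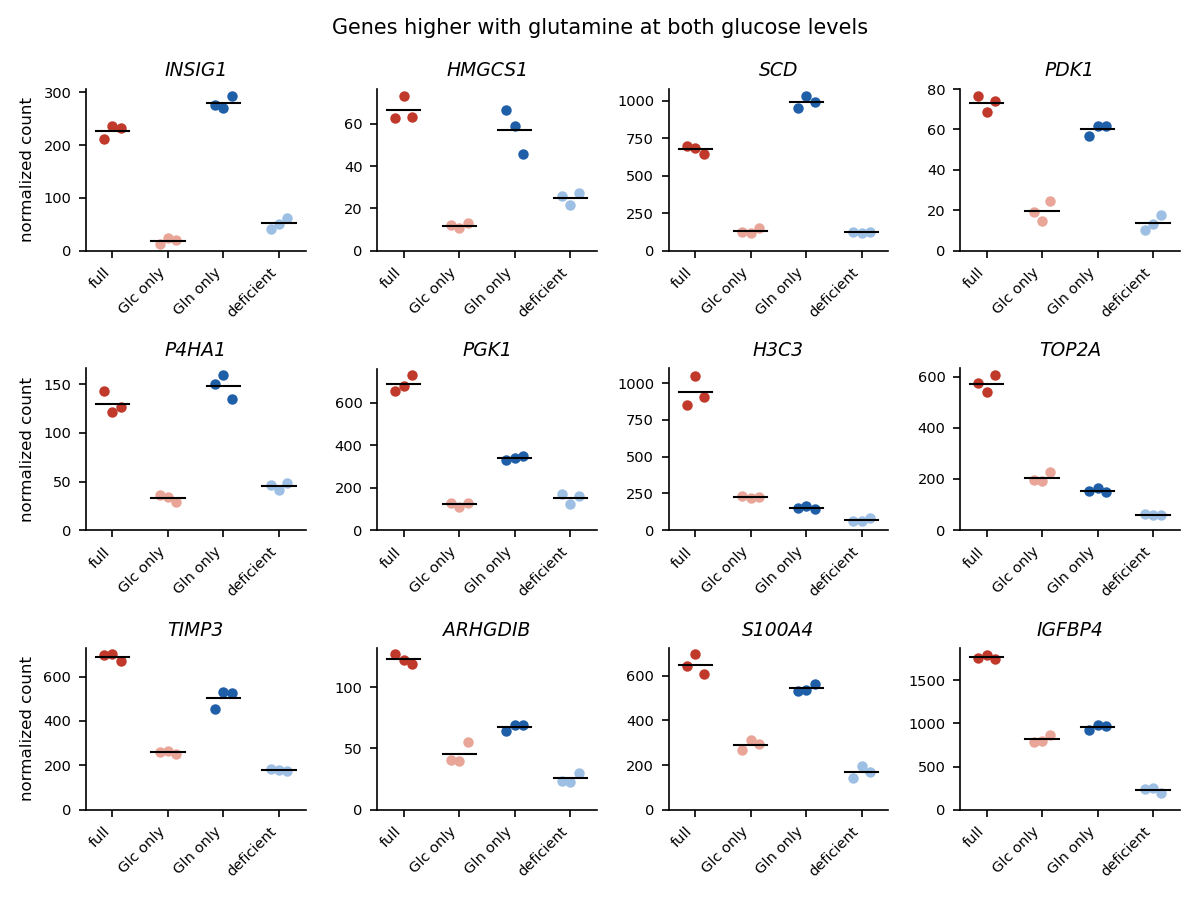
Normalized counts (linear axis starting at 0) of 12 chosen higher genes in each library, with a point per library and a line at the mean of each medium; Glc only and Gln only stand for glucose-only and glutamine-only medium. In each panel drawn, the 3 libraries with glutamine lie above the 3 without it at the same glucose level. Some of these genes, such as TIMP3, were named only because their libraries did not overlap, so this is partly built in.

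Hypoxia-responsive genes and glycolytic enzymes were also higher with glutamine. Of 21 tested hypoxia targets outside glycolysis, 16 rose and none fell on average, with a median log2 difference of 1.09; BNIP3, BNIP3L, CA12, NDRG1, P4HA1, P4HA2 and PDK1 met the rule. Without glucose, 12 of them rose and 4 fell. Of 20 tested glycolysis genes, 15 rose and SLC2A3, a neuronal-type glucose transporter, fell on average, with a median of 0.84, and PFKFB4, PFKL, PGK1 and TPI1 met the rule. With glucose 18 rose and none fell, and without it 13 rose and 4 fell. In both lists the 4 fallen without glucose were near the share of 21.6% over all genes. By the interaction, 12 of the 20 glycolysis genes had a larger effect with glucose and none a smaller one. The promoters of PGK1, the phosphoglycerate kinase of glycolysis, and BNIP3, a mitochondrial mitophagy receptor, are shown because both are known hypoxia targets among the chosen genes. They are the 250 bases before the RefSeq start on GRCh38.p14, at chrX:78103998-78104247 on the plus strand and chr10:131981924-131982173 on the minus strand, 5′ to 3′ along the gene. Capitals mark the core of the hypoxia response element, searched as ACGTG on both strands, so that it reads CACGT on the opposite strand; in BNIP3 both readings overlap in CACGTG.
PGK1: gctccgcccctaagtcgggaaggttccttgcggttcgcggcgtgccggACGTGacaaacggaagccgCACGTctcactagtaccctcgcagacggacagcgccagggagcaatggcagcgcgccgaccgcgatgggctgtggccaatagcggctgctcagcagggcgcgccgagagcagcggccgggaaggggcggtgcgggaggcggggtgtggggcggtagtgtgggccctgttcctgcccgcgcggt
BNIP3: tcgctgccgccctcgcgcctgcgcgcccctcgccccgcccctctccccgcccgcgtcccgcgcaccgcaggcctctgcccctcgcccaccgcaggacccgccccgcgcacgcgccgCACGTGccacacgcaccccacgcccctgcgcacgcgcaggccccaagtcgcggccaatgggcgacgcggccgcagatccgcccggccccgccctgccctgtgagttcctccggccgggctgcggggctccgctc
This core was in 36 promoters of higher genes (22.4%) and 13 of lower genes (22.0%), beside 23.1% of promoters of tested genes and 18.5% of all. It was in 15 of 24 promoters of tested members of the hypoxia list (62.5%) and in 3 of 6 of its chosen members (50%).

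PGK1 had 655, 681 and 730.2 normalized counts in full medium, against 130.1, 107 and 129 in glucose-only medium, and 330.1, 338 and 351 in glutamine-only medium, against 169, 121 and 160.0 in deficient medium. The 3 libraries of full medium were the highest of the 12, and those of glucose-only and deficient medium overlapped. The average log2 difference was 1.84 ± 0.08 (SE, adjusted p = 7.4e-17), larger with glucose by 1.30 on the log2 scale with adjusted p = 4.4e-07. TPI1, the triose phosphate isomerase, had the same order of media. TPI1 had 676, 687 and 677 normalized counts in full medium, against 153, 178 and 141 in glucose-only medium, and 308, 368 and 358 in glutamine-only medium, against 154, 158 and 180.1 in deficient medium. PFKFB4, a bifunctional enzyme that sets fructose 2,6-bisphosphate, averaged 53.2 ± 2.56 in full medium and 8.61 ± 2.83 in glucose-only medium, and 32.6 ± 1.84 in glutamine-only medium and 10.8 ± 2.18 in deficient medium. BNIP3 had 395, 423 and 395 normalized counts in full medium, against 60.2, 50.3 and 57.6 in glucose-only medium, and 277, 243 and 234 in glutamine-only medium, against 74.2, 94.2 and 95.5 in deficient medium. For BNIP3 the average difference was 2.17 ± 0.08 (SE, adjusted p = 2.5e-18), and it too was larger with glucose (1.32 on the log2 scale with adjusted p = 4.5e-07). PDK1, the kinase that switches off pyruvate dehydrogenase, averaged 73.2 ± 4.15 in full medium and 19.5 ± 5.02 in glucose-only medium, and 60.0 ± 2.74 in glutamine-only medium and 13.9 ± 3.76 in deficient medium. CA12, a carbonic anhydrase at the cell surface, went the other way in size. CA12 had 108, 110.0 and 116 normalized counts in full medium, against 33.7, 45.1 and 68.2 in glucose-only medium, and 75.8, 75.1 and 79.2 in glutamine-only medium, against 13, 10.9 and 10.1 in deficient medium. Its glucose-only libraries were spread widely, and its effect was larger without glucose (-1.44 on the log2 scale with adjusted p = 0.00014). PGM1, the phosphoglucomutase that links glycogen to glycolysis, averaged 143 ± 9.66 in full medium and 34.6 ± 7.44 in glucose-only medium, and 83.5 ± 2.13 in glutamine-only medium and 32.4 ± 4.00 in deficient medium.

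Dioxygenases that use oxoglutarate were mixed: of 27 tested, 10 rose and 5 fell, the fallen at about the share of 18.6% over all genes, with a median of 0.16. The 4 that met the rule were P4HA1, P4HA2, PLOD1 and TET1. P4HA1 and P4HA2 encode catalytic subunits of collagen prolyl hydroxylase. P4HA1 had 143, 121 and 127 normalized counts in full medium, against 36.1, 34.6 and 29.4 in glucose-only medium, and 151, 159.9 and 135 in glutamine-only medium, against 46.9, 41.1 and 48.9 in deficient medium. Glutamine separated the libraries at both glucose levels by nearly the same ratio, 3.90 and 3.26, and the average difference was 1.81 ± 0.09 (SE, adjusted p = 3.7e-15). PLOD1, a collagen lysyl hydroxylase, averaged 111 ± 6.29 in full medium and 48.8 ± 8.84 in glucose-only medium, and 108 ± 3.05 in glutamine-only medium and 44.7 ± 10.5 in deficient medium. TET1, which oxidizes methylcytosine in DNA, was low, at 15.4 ± 3.98 in full medium and 5.78 ± 2.31 in glucose-only medium, and 7.15 ± 2.70 in glutamine-only medium and 3.23 ± 1.24 in deficient medium. EGLN3, a hydroxylase that marks hypoxia-inducible factors for degradation and a hypoxia target itself, differed mainly with glucose. EGLN3 had 21.8, 32 and 31.2 normalized counts in full medium, against 1.2, 1.05 and 2.35 in glucose-only medium, and 16.2, 13.5 and 15.8 in glutamine-only medium, against 6.51, 10.9 and 14 in deficient medium. Its interaction was 3.00 on the log2 scale with adjusted p = 4.1e-05.

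Histone and mitotic genes were higher with glutamine. Of 29 tested genes of a histone list, 28 rose on average and none fell, with a median log2 difference of 0.92. Its members H1-4, H2AC11, H2AC14, H2BC14, H3C1, H3C3 and H4C1 met the rule, H2BC14 on 5 reads in glutamine-only medium against 1 in deficient medium. The histone genes H3C13, H3C15 and H4C16, outside the list, met the rule too. With glucose 27 rose and without it 17, none fell at either level, and 15 had a larger effect with glucose by the interaction, none a smaller one. Replication-dependent histones, which make up most of the list, are transcribed while DNA is copied and their mRNA lacks a poly(A) tail, so ribosomal RNA depletion keeps it; several are near-identical copies whose reads may have been split. The promoter of H2AC11, a histone H2A gene of the chromosome 6 cluster, is shown for its 4 CCAAT boxes. It is chr6:27132793-27133042 on GRCh38.p14, plus strand, from RefSeq, with CCAAT or its reverse ATTGG in capitals.
H2AC11: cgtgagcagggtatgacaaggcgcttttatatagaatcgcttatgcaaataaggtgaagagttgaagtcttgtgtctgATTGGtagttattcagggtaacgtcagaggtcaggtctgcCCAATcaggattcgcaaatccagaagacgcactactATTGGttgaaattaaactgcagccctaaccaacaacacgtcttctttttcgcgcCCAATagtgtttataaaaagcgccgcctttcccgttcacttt
All 6 promoters found for the chosen members of the histone list and 22 of 26 of its tested ones (84.6%) held CCAAT. So did all 5 of the chosen members of a mitosis list and 26 of 35 of its tested ones (74.3%). Outside these lists, the promoters of H3C13 and H3C15 held it, and those of H4C16 and the chosen centromere gene CENPI did not. H2AC11 had 165, 206 and 146 normalized counts in full medium, against 54.2, 50.3 and 64.7 in glucose-only medium, and 28.9, 25 and 28.9 in glutamine-only medium, against 10.4, 18.1 and 10.9 in deficient medium. Full medium was the highest for this gene, and every glucose-only library was above every glutamine-only library. H3C3 had 854, 1050.0 and 908 normalized counts in full medium, against 230.1, 217 and 223 in glucose-only medium, and 148, 164 and 144 in glutamine-only medium, against 62.5, 62.8 and 80 in deficient medium. H3C3, a histone H3 gene, had the same order, with 1.60 ± 0.08 (SE, adjusted p = 7.3e-16) on average and a larger effect with glucose (0.91 on the log2 scale with adjusted p = 5.8e-05).

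Of 35 tested mitotic genes 33 rose on average and none fell, with a median of 0.87; 34 rose with glucose, and 18 rose and 1 fell without it. TOP2A, ASPM, KIF20A, CENPA and PRC1 met the rule, though 58% of PRC1's exon length overlaps another gene on its strand. TOP2A encodes the topoisomerase that untangles chromosomes. TOP2A had 575, 540.5 and 605 normalized counts in full medium, against 196, 192 and 226 in glucose-only medium, and 152, 164 and 147 in glutamine-only medium, against 62.5, 58 and 60.6 in deficient medium. Its ratio was 2.80 with glucose and 2.56 without, an average difference of 1.41 ± 0.07 (SE, adjusted p = 2.4e-15), with no difference between glucose levels past the test (0.15 on the log2 scale with adjusted p = 0.49). ASPM, a spindle pole protein, averaged 302 ± 28 in full medium and 144 ± 17.2 in glucose-only medium, and 129 ± 7.11 in glutamine-only medium and 37.0 ± 8.21 in deficient medium. MKI67, the proliferation marker, stayed outside the rule with a ratio of 2.23 with glucose and 1.55 without, at 0.90 ± 0.08 (SE, adjusted p = 1.2e-09) on average. RRM2, a subunit of ribonucleotide reductase, and TK1, thymidine kinase, met the rule, while the nucleotide synthesis list as a whole had 5 of 27 genes higher and 3 lower, neither above the shares over all genes of 19.5% and 18.6%, and its median, -0.11, became 0.14 when libraries were scaled to equal totals. RRM2 had 104, 109 and 105 normalized counts in full medium, against 45.8, 37.7 and 50.6 in glucose-only medium, and 23.5, 24.1 and 23.3 in glutamine-only medium, against 6.51, 7.24 and 10.9 in deficient medium. TK1 had 80, 105 and 85.3 normalized counts in full medium, against 25.3, 22 and 27 in glucose-only medium, and 28.9, 26 and 26.1 in glutamine-only medium, against 18.2, 9.66 and 9.32 in deficient medium. Of 32 tested DNA replication genes, 6 rose and 2 fell, neither above the shares over all genes of 19.5% and 18.6%, with a median of 0.17.

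Other named higher genes belong to none of the lists above or to lists with few chosen members. TIMP3, an inhibitor of metalloproteinases in the matrix, had 695, 702 and 671 normalized counts in full medium, against 260.2, 263 and 252 in glucose-only medium, and 452, 529 and 526 in glutamine-only medium, against 185, 179 and 174 in deficient medium. Its ratios of 2.67 and 2.80 were close, and the average difference was 1.45 ± 0.07 (SE, adjusted p = 1.8e-16). ARHGDIB, a regulator of small GTPases, averaged 123 ± 3.88 in full medium and 45.3 ± 8.61 in glucose-only medium, and 67.5 ± 2.96 in glutamine-only medium and 25.6 ± 4.10 in deficient medium. CSF1, the macrophage growth factor, averaged 405 ± 14.5 in full medium and 197 ± 14.1 in glucose-only medium, and 293 ± 4.48 in glutamine-only medium and 95.7 ± 6.61 in deficient medium. IGFBP4, S100A4 and LGALS1 had the highest means among the chosen genes not otherwise named and are given here after their values were seen. IGFBP4, a binding protein of insulin-like growth factors, had 1764, 1795 and 1749 normalized counts in full medium, against 787, 792 and 869 in glucose-only medium, and 925, 983 and 967 in glutamine-only medium, against 241, 251 and 192 in deficient medium. Deficient medium was far below the other media for IGFBP4, and the effect was larger without glucose (-0.96 on the log2 scale with adjusted p = 9e-06). S100A4, a calcium-binding protein, averaged 649 ± 45.9 in full medium and 292 ± 21.6 in glucose-only medium, and 544 ± 17.7 in glutamine-only medium and 168 ± 26.9 in deficient medium. LGALS1, galectin-1, averaged 504 ± 57.9 in full medium and 219.8 ± 24.0 in glucose-only medium, and 357 ± 14.7 in glutamine-only medium and 138 ± 14.3 in deficient medium. SLC6A6, the taurine transporter, was the amino acid transporter of the list that met the rule, at 106 ± 17.7 in full medium and 49.5 ± 3.45 in glucose-only medium, and 121 ± 5.62 in glutamine-only medium and 54.3 ± 7.04 in deficient medium. Of 12 tested interferon-stimulated genes 10 rose and none fell, with a median of 0.66; OAS3, which senses double-stranded RNA, met the rule at 47.9 ± 2.23 in full medium and 16.3 ± 0.581 in glucose-only medium, and 20.2 ± 2.75 in glutamine-only medium and 9.56 ± 2.82 in deficient medium.

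Deficient medium had the highest mean in 63 of the 64 lower genes and full medium the lowest in 62. The rule itself lets only a medium without glutamine be highest and only one with glutamine be lowest. These counts are thus partly built in and are no test. PPP1R15A encodes GADD34, which directs a phosphatase to the translation factor eIF2 and is a target of the amino acid response. PPP1R15A had 52.2, 46.1 and 60.5 normalized counts in full medium, against 167, 213 and 166 in glucose-only medium, and 162, 159 and 158 in glutamine-only medium, against 643, 729 and 641 in deficient medium. Each medium had its own range, with glutamine-only medium just under glucose-only medium, and the average difference was -1.91 ± 0.08 (SE, adjusted p = 4.4e-17). DDIT3 encodes CHOP, a transcription factor of the same response. DDIT3 had 4.63, 1.88 and 8.26 normalized counts in full medium, against 26.5, 28.3 and 22.3 in glucose-only medium, and 37, 30.8 and 22.4 in glutamine-only medium, against 88.5, 89.4 and 83.1 in deficient medium. Full medium was near the level of a few reads, the average difference was -1.93 ± 0.20 (SE, adjusted p = 1.4e-08), and 32% of its exon length overlaps a gene on the other strand. MMP1 encodes interstitial collagenase. MMP1 had 31.1, 43.2 and 34.9 normalized counts in full medium, against 143, 156 and 169 in glucose-only medium, and 92.9, 99.2 and 83 in glutamine-only medium, against 729, 675 and 707 in deficient medium. Deficient medium stood far above the others for MMP1, and the average difference was -2.51 ± 0.08 (SE, adjusted p = 2.9e-19); the fall was larger without glucose, shown by a positive interaction of 0.85 on the log2 scale with adjusted p = 0.00037. F3, tissue factor, which starts coagulation, averaged 33.9 ± 7.09 in full medium and 78.0 ± 4.98 in glucose-only medium, and 52.2 ± 2.69 in glutamine-only medium and 163 ± 6.13 in deficient medium.

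**Figure D3:**
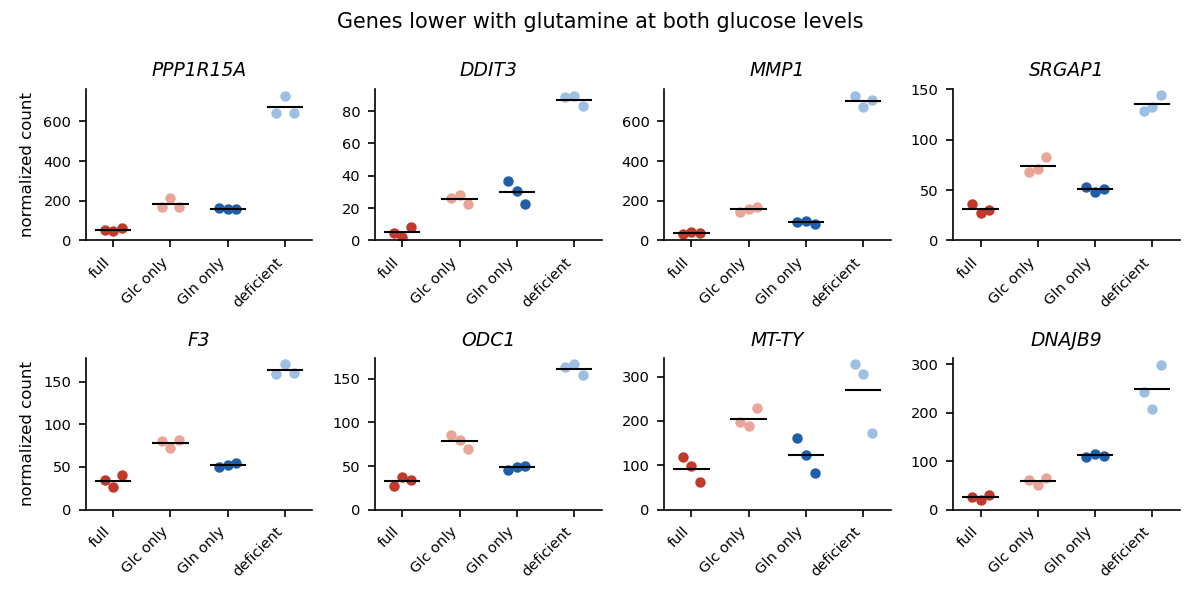
Normalized counts (linear axis starting at 0) of 8 chosen lower genes in each library, drawn as for the higher genes. Deficient medium has the highest mean in each panel, as in PPP1R15A with 641 to 729 normalized counts against 158 to 162 in glutamine-only medium. The rule that chose the genes already placed deficient above glutamine-only medium.

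ODC1 encodes ornithine decarboxylase, which makes the first polyamine. ODC1 had 27.1, 37.6 and 33.9 normalized counts in full medium, against 85.5, 79.6 and 69.4 in glucose-only medium, and 46, 49.1 and 50.3 in glutamine-only medium, against 164, 167 and 155 in deficient medium. It was the member of the polyamine list that met the rule, at -1.47 ± 0.10 (SE, adjusted p = 1e-12) on average. Of 10 tested members 3 rose and 3 fell, beside 19.5% and 18.6% of all genes, with a median of 0.12. SRGAP1, a GTPase-activating protein, CAPRIN2, an RNA-binding protein, and USP36, a nucleolar deubiquitinase, had lower means with glutamine at both glucose levels. CAPRIN2, for example, averaged 120.3 ± 11.5 in full medium and 246 ± 12.5 in glucose-only medium, and 187 ± 19.3 in glutamine-only medium and 425 ± 40.4 in deficient medium. DNAJB9, a co-chaperone of the endoplasmic reticulum, averaged 25.2 ± 4.93 in full medium and 58.4 ± 7.36 in glucose-only medium, and 112 ± 3.66 in glutamine-only medium and 249.6 ± 46.1 in deficient medium. Of 24 tested chaperones and unfolded protein response genes of the endoplasmic reticulum, the list it belongs to, 11 rose and 5 fell on average, with a median of 0.35. With glucose 6 rose and 6 fell, and without it 13 rose and 4 fell. Over all genes tested the shares were 19.5% higher and 18.6% lower on average, 13.5% and 9.44% with glucose, and 19.9% and 21.6% without it. The fallen of this list were near that share on average and under it without glucose. MT-TY, the mitochondrial tRNA for tyrosine, had 118, 98.7 and 61.5 normalized counts in full medium, against 198, 188 and 229 in glucose-only medium, and 162, 123 and 82 in glutamine-only medium, against 328, 305 and 172 in deficient medium. The libraries of a medium were spread widely for MT-TY, as was the read share of all mitochondrial tRNAs, whose mean was 8.56 ± 1.53% in full medium and 14.8 ± 0.810% in glucose-only medium, and 8.97 ± 1.42% in glutamine-only medium and 11.1 ± 2.19% in deficient medium. Of 13 mitochondrial mRNAs 9 fell on average and none rose, with a median of -0.31, whereas 2 rose and none fell with equal totals.

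Immediate early genes, which growth factor and stress signals switch on within minutes, were mostly lower with glutamine. Of 25 tested, 21 fell and 4 rose (FOSL2, JUND, DUSP4 and DUSP6), with a median of -1.04. With glucose 7 fell and 4 rose, and without it 21 fell and 3 rose. The effect was more negative without glucose by the interaction in 18, beside 15.5% of all genes. Over all genes tested, 19.5% were higher on average, 13.5% with glucose and 19.9% without it. The risen of this list were under that share on average and without glucose, and near it with glucose. EGR3, FOSB and NR4A1 met the rule, all 3 at few reads with glucose: NR4A1 had 0 reads in full medium and 2 in glucose-only medium. FOSB had 2.64, 0.94 and 2.75 normalized counts in full medium, against 1.2, 7.33 and 5.88 in glucose-only medium, and 26.2, 23.1 and 21.4 in glutamine-only medium, against 74.2, 78.5 and 67.6 in deficient medium. Both media without glucose were above both with it for FOSB. MYC, an activator of growth genes that belongs here and among ribosome biogenesis genes, missed the rule at 1.98. MYC had 42.3, 49.8 and 39.4 normalized counts in full medium, against 85.5, 79.6 and 95.2 in glucose-only medium, and 71.3, 71.3 and 76.4 in glutamine-only medium, against 311, 318 and 329 in deficient medium. Its deficient libraries were well above the others, and its interaction was 1.14 on the log2 scale with adjusted p = 9e-06. Of 31 tested ribosome biogenesis genes, 26 fell and none rose, with a median of -0.56; 10 fell with glucose and 29 without, and 14 fell on average with equal totals. RRP12 and MYBBP1A, nucleolar proteins, met the rule. RRP12 averaged 18.7 ± 3.51 in full medium and 47.0 ± 8.90 in glucose-only medium, and 40.7 ± 5.26 in glutamine-only medium and 83.5 ± 1.30 in deficient medium. MXD1, an antagonist of MYC, fell too (-1.42 ± 0.20, SE, adjusted p = 2.2e-06). It belongs to a growth arrest list with 5 of 16 members higher and 7 lower, beside 19.5% and 18.6% of all genes, and a median of 0.06. Of 18 tested NRF2 targets 11 fell and 1 rose, with a median of -0.36; SQSTM1, an autophagy receptor, met the rule at few reads, with a deficient mean of 23.2 ± 12.8.

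Enzymes that handle glutamine itself stayed outside the 2-fold rule. Of 16 tested enzymes of glutamine, glutamate and proline, GSS, glutathione synthetase, rose and 6 fell, among them GOT1, PYCR1, GFPT1, GCLC and GCLM; the median, -0.11, became 0.13 with equal totals. GLUL encodes glutamine synthetase, which makes glutamine from glutamate. GLUL had 65.5, 67.7 and 66 normalized counts in full medium, against 38.5, 41.9 and 40 in glucose-only medium, and 71.3, 61.6 and 67.1 in glutamine-only medium, against 105, 161 and 129 in deficient medium. It was higher with glutamine where glucose was present and lower where it was absent, so the average, -0.12 ± 0.10 (SE, adjusted p = 0.37), did not pass and the interaction did (1.67 on the log2 scale with adjusted p = 3.1e-07). Of 19 tested amino acid transporters, 2 rose and 9 fell, with a median of -0.22 that became 0.03 with equal totals; with glucose 2 rose and 11 fell, and without it 7 rose and 2 fell. SLC1A5, a glutamine carrier of the plasma membrane, had 56.9, 56.4 and 40.4 normalized counts in full medium, against 159, 132 and 158 in glucose-only medium, and 165, 167 and 158 in glutamine-only medium, against 134, 112 and 104 in deficient medium. It was lower with glutamine beside glucose and higher without glucose (interaction -2.03 on the log2 scale with adjusted p = 2.7e-09). SLC38A2, a sodium-coupled glutamine carrier, fell at both levels by less than 2-fold. SLC38A2 had 462, 509 and 505 normalized counts in full medium, against 665, 625 and 643 in glucose-only medium, and 889, 841 and 936 in glutamine-only medium, against 1446, 1323 and 1509 in deficient medium. The average was -0.54 ± 0.07 (SE, adjusted p = 2.4e-07).

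**Figure D4:**
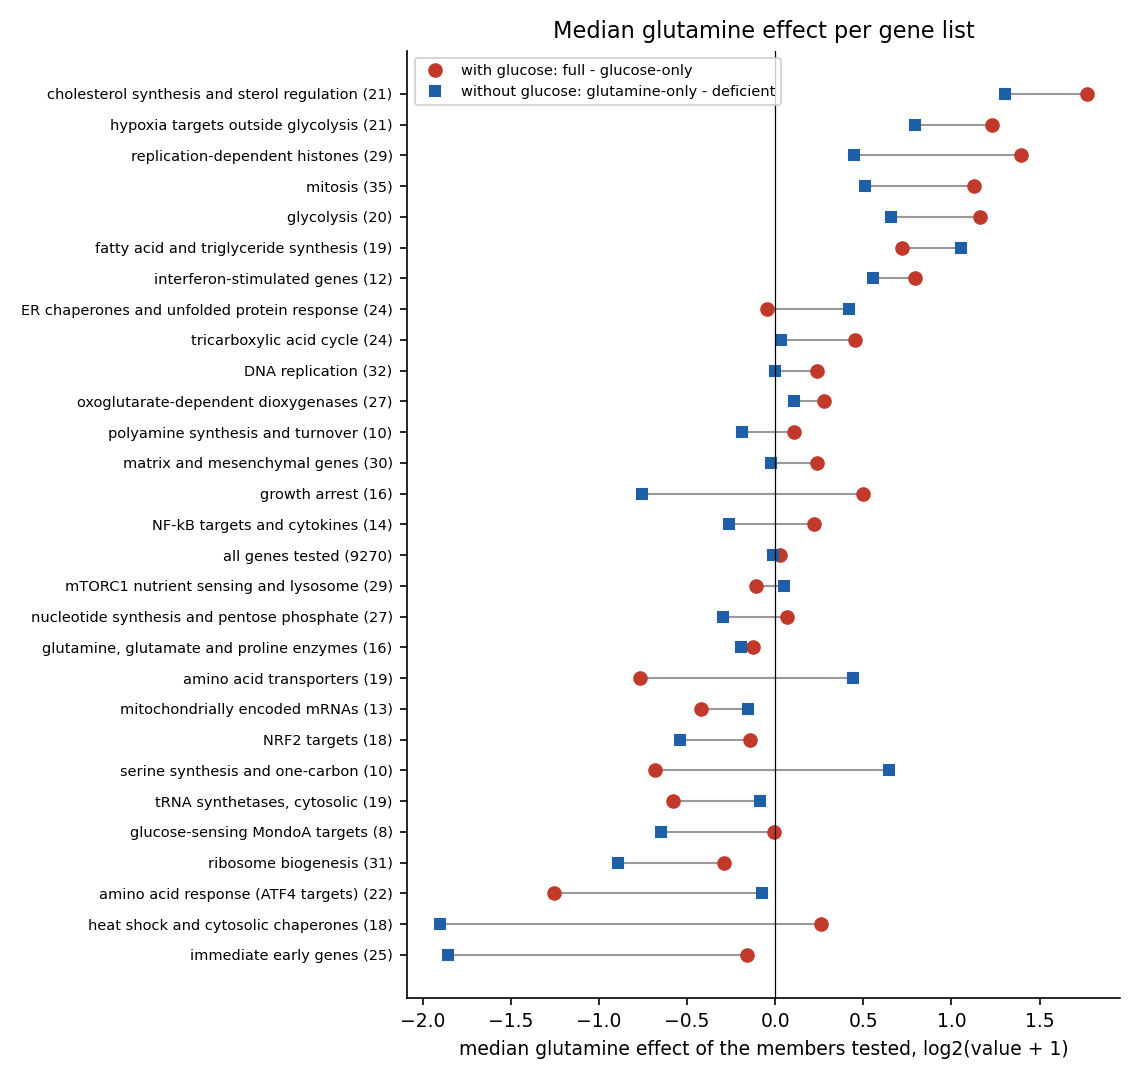
For each gene list, the median log2 difference over its tested members with glutamine against without it, as a circle with glucose and a square without; all genes tested are shown as a row of their own and the number of tested members stands in brackets. Cholesterol synthesis lies to the right at both levels (1.77 with glucose, 1.30 without) and the heat shock list changes side (0.26 with glucose, -1.90 without).

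The effect on the amino acid response differed between glucose levels. Of 22 tested ATF4 targets 16 fell and 2 rose on average (VLDLR and DDIT4), with a median of -0.60. With glucose 16 fell and none rose, and without it 4 fell and 7 rose. The 4 fallen without glucose were under the share of 21.6% over all genes, and the 2 risen on average under that of 19.5%. The effect was more negative with glucose in 16 by the interaction, beside 11% of all genes. TRIB3, a pseudokinase that dampens the response, had 10.6, 17.9 and 11.9 normalized counts in full medium, against 142, 152 and 143 in glucose-only medium, and 147, 143 and 131 in glutamine-only medium, against 200.5, 233 and 204 in deficient medium. Full medium stood alone below the other 3 media, with an interaction of -2.79 on the log2 scale with adjusted p = 2.7e-11. PSAT1, an aminotransferase of serine synthesis, changed sign. PSAT1 had 29.8, 28.2 and 36.7 normalized counts in full medium, against 182, 226 and 178 in glucose-only medium, and 187, 161 and 190.1 in glutamine-only medium, against 67.7, 54.3 and 83.1 in deficient medium. Its interaction was -3.99 on the log2 scale with adjusted p = 1.4e-14, the most negative among genes with a mean of at least 100 normalized counts. RBCK1, a subunit of a ubiquitin ligase, followed the same order of media, with -2.92 on the log2 scale with adjusted p = 1.2e-12. SLC3A2, the heavy chain shared by several exchangers, averaged 42.4 ± 5.54 in full medium and 174 ± 3.35 in glucose-only medium, and 329.6 ± 13.2 in glutamine-only medium and 351 ± 14.1 in deficient medium. Of 10 tested genes of serine synthesis and one-carbon metabolism, 5 fell with glucose and none rose. Without it 5 rose and 2 fell, the fallen at about the share of 21.6% over all genes. On average 2 rose, about the share of 19.5% over all genes, and 5 fell, with a median of -0.37. Of 19 tested aminoacyl-tRNA synthetases 12 fell and 1 rose, with a median of -0.37; with equal totals 5 fell and 2 rose. ASNS, asparagine synthetase, did not pass the filter on low values.

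Across all genes, 1438 (15.5%) had a more positive glutamine effect with glucose than without, and 1020 (11%) a more negative one. Of the 162 higher genes 26 differed this way, 13 of them with the larger effect in the presence of glucose, and 6 of the 64 lower genes did, all with the larger fall in its absence. Heat shock genes, which code for chaperones that refold proteins, had the largest such differences among the lists. Of 18 tested, 17 fell and none rose on average, with a median of -0.75; but 6 rose and 1 fell with glucose, all 18 fell without it, and the interaction was positive in all 18. None met the 2-fold rule. DNAJB1, the co-chaperone of HSP70, had 72.7, 70.5 and 66 normalized counts in full medium, against 65, 50.3 and 51.7 in glucose-only medium, and 161, 175 and 186 in glutamine-only medium, against 3341, 3502 and 3617 in deficient medium. Glutamine-only medium was 20-fold below deficient medium, against a ratio of 1.25 between full and glucose-only medium, giving an interaction of 4.64 on the log2 scale with adjusted p = 1.7e-19. HSP90AA1 had 855, 919 and 921 normalized counts in full medium, against 694, 637 and 618 in glucose-only medium, and 780.3, 845 and 775 in glutamine-only medium, against 5531, 6119 and 6506 in deficient medium. HSP90AA1, the inducible HSP90, and HSPH1, an exchange factor of HSP70, had interactions of 3.38 on the log2 scale with adjusted p = 1.3e-16 and 3.50 on the log2 scale with adjusted p = 9.5e-15. Of the 290 genes past 2-fold at both glucose levels, 64 changed in opposite directions, 25 of them higher with glutamine where glucose was present and 39 the reverse.

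**Figure D5:**
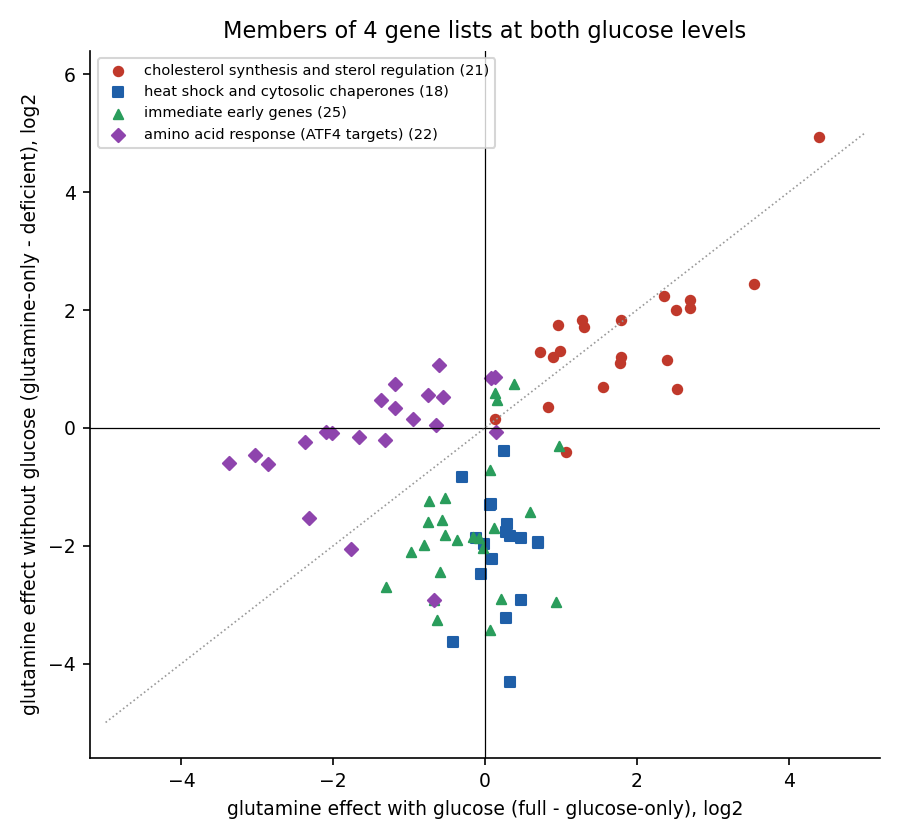
Log2 difference with glutamine against without it for each tested member of 4 lists, with glucose (x axis) and without glucose (y axis), a point per gene. Most cholesterol genes lie in the upper right, while heat shock genes lie below 0 on the y axis for all 18 members.

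Of 24 tested genes of the tricarboxylic acid cycle and its entry, 11 rose and none fell, with a median of 0.21, and none met the rule. IDH1, the cytosolic enzyme that makes oxoglutarate and NADPH, differed mainly without glucose: 35.7, 33.8 and 43.1 normalized counts in full medium, against 31.3, 23.1 and 34.1 in glucose-only medium, and 99.2, 64.5 and 97.9 in glutamine-only medium, against 9.11, 19.3 and 16.3 in deficient medium, an interaction of -2.15 on the log2 scale with adjusted p = 1.2e-05. Of 29 tested genes of mTORC1 nutrient sensing and the lysosome 4 rose and 5 fell, both under the shares over all genes of 19.5% and 18.6%, with a median of -0.04 that became 0.21 with equal totals. Of 14 tested NF-kB targets 6 rose and 3 fell, the fallen at about the share of 18.6% over all genes. Their median of 0.00 became -0.08 under quantile scaling. Of 8 tested MondoA targets, genes that respond to glucose 6-phosphate, 1 rose and 5 fell, with a median of -0.44; TXNIP, which restrains glucose uptake, averaged -0.65 ± 0.12 (SE, adjusted p = 0.00011). Of 30 tested matrix and mesenchymal genes 12 rose and 8 fell, with a median of 0.10, and MMP1 was among those that met the rule.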

How the data were processed

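Total RNA of 12 libraries, 3 for each of 4 media, was treated with DNase, depleted of ribosomal RNA and made into stranded libraries, per the labels' protocols. Reads were handled by the authors with FastQC, HISAT2, Subread and DESeq2 on GRCh38.p14, per the submitters' processing notes; versions, annotation and the strand setting of the counting are not given in the sources used here. The deposited signal per gene is a normalized count, reads divided by a size factor of the library, and all values were whole multiples of 1 read within 0.01 reads. Of 63187 genes in the file, 9270 had a value of at least 10 in at least 3 of 12 libraries. The main test was limma 3.58.1 (trend) on log2(value + 1), in R 4.3.3, with a mean per medium and Benjamini-Hochberg adjustment over the 9270 genes; a fold change on this scale understates the change of low genes. On the recovered reads, DESeq2 1.42.0 and the quasi-likelihood test of edgeR 4.0.16 with TMM scaling were alternatives. The fits were tested on simulated data. Ratios of group means chose the 226 genes. Named genes were the 12 strongest each way by their smaller ratio, with a mean of at least 50 and no overlap, up to 4 members of each list by size of the average effect and every list member that met the ratio rule, the 3 extremes of the interaction each way with a mean of at least 100, the 3 genes on each side of the limit, and fixed genes such as GLUL. Some genes that this rule picks are not reported here. The genes and lists were chosen with earlier results of these data known. Read shares were compared by exact permutation within glucose level. Motifs were searched in RefSeq promoters, the 250 bases before each start, and exon overlaps were taken from the GENCODE annotation at hand. Other scalings, filters, thresholds, tests and each library left out were tried. Python 3.11.15 with pandas 2.3.3, numpy 2.4.6, scipy 1.17.1 and matplotlib 3.10.9 was used.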

Additional observations from a re-analysis of the deposited data

Results flagged for a closer look

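The glutamine effect differed between the 2 glucose levels in 2458 genes (limma interaction, full minus glucose-only medium less glutamine-only minus deficient medium, Benjamini-Hochberg adjusted p below 0.05 over 9270 genes). Among the genes named, those that differed are given here with that interaction on the log2 scale, where a positive value means a more positive effect with glucose than without. With 3 libraries a medium, no sample was tested for standing apart from its group. The sterol and lipid genes with such a difference were INSIG1 (1.10), HMGCS1 (1.25) and SCD (-0.62). Glycolysis, glycogen and hypoxia genes with such a difference were PGK1 (1.30), TPI1 (1.04), PFKFB4 (1.02), PGM1 (0.69), BNIP3 (1.32), NDRG1 (0.94), CA12 (-1.44) and EGLN3 (3.00). Histone, mitosis and DNA synthesis genes with such a difference were H2BC14 (2.06), H3C3 (0.91), H3C12 (2.48), MKI67 (0.51), ASPM (-0.73), RPA2 (0.98) and RRM1 (0.71). Heat shock genes with such a difference were HSPA6 (3.20), DNAJB1 (4.64), HSPH1 (3.50), HSP90AA1 (3.38) and BAG3 (2.44). Immediate early, growth arrest and MondoA target genes with such a difference were ATF3 (2.24), EGR1 (2.62), DUSP1 (3.49), MYC (1.14), GADD45A (1.64), KLF10 (2.02) and KLF11 (1.83). Genes of the unfolded protein response with such a difference were ERN1 (-1.88) and XBP1 (0.53). Amino acid response, transporter, synthetase, serine synthesis and nutrient-sensing genes with such a difference were TRIB3 (-2.79), PSAT1 (-3.99), SLC3A2 (-1.93), SLC1A4 (-2.59), SLC1A5 (-2.03), AARS1 (-1.33), SARS1 (-1.29), YARS1 (-1.15) and SESN3 (2.21). Genes of glutamine, glutathione, oxoglutarate and polyamine metabolism and NRF2 targets with such a difference were GLUL (1.67), GCLM (1.48), PYCR1 (-1.13), IDH1 (-2.15), HMOX1 (3.29), SMS (1.16) and AZIN1 (0.96). Matrix, cytokine, interferon and signalling genes with such a difference were MMP1 (0.85), THBS1 (2.41), CSF1 (-0.57), CXCL1 (1.20), IL11 (2.78), TNFAIP3 (1.74), IFIT1 (3.78), EGFR (0.73), RBCK1 (-2.92), IGFBP4 (-0.96) and S100A4 (-0.55).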

How the results depend on the processing

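The numbers of genes differing by glutamine on average (3531), with glucose (2124), without glucose (3844) and between glucose levels (2458), and the 226 genes of the 2-fold rule, were recomputed under each alternative. Restricting to genes with a mean of at least 100 left 774, 615, 777 and 632, and 27 genes of the rule. These are out of 1213 genes tested in place of 9270, so the counts are not comparable as such. DESeq2 gave 1255 with glucose and 1495 for the interaction, and an adjusted p below 0.01 gave 1245 and 1496; the cause of the lower DESeq2 counts was not tested. The rule chose 69 genes with a pseudocount of 8, 3104 with no filter, 358 with libraries scaled to equal totals (194 of them shared), 866 at 1.5-fold and 45 at 3-fold. Splits of higher and lower genes under equal totals were 2154 and 396 with glucose, 2826 and 940 without, and 1076 and 1008 for the interaction. With each library left out in turn the counts ranged between 3119 and 3377 on average, 1640 and 2225 with glucose, 3236 and 3870 without, 2143 and 2443 for the interaction, and 223 and 248 for the rule. List medians that changed sign were, with equal totals, enzymes of glutamine (0.13), amino acid transporters (0.029), nucleotide synthesis (0.14) and mTORC1 genes (0.21), and under quantile scaling NF-kB targets (-0.080); the median of mitochondrial mRNAs became -0.06 with equal totals and -0.02 under quantile scaling. With letters as a replicate block, 3576 genes differed on average, 2166 with glucose, 3874 without and 2492 between levels; the labels do not tie the letters across media, and same-letter deviations correlated between -0.029 and 0.067 in 18 pairs, none over 0.1, so the block was not the main fit. That 8 of 12 libraries correlated best with their own letter is a hint of pairing from the data, not the design. Of 3114 recomputed values of genes picked by the naming rule, 3072 kept their side of the threshold and 42 lost the call. No sign changed where the gene passed the test in the main fit or in the alternative. Sign changes of genes that passed in neither were not counted. With 1 read worth 0.661 to 1.30 normalized counts, values near 10 rest on few reads.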

Other observations

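Among the 162 higher genes full medium had the highest mean in 131 and glutamine-only medium in 31, and deficient medium had the lowest mean in 134 and glucose-only medium in 28. The rule lets no other medium be highest or lowest in these genes, so the counts carry no test. Their summed values were 17030.3, 17710.9 and 17213 normalized counts in full medium, against 5812.96, 5969.57 and 6111.87 in glucose-only medium. Without glucose they were 11270.1, 11623.3 and 11496 in glutamine-only medium, against 3463.74, 3584.92 and 3561.67 in deficient medium. By annotation 154 of the 162 were protein coding, and 47 belonged to a list described above.

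Among the 64 lower genes, 56 were protein coding and 13 belonged to a list. Their summed values were 876.08, 757.615 and 820.105 normalized counts in full medium, against 1997.08, 1999.29 and 2148.21 in glucose-only medium. Without glucose they were 1680.5, 1643 and 1488.49 in glutamine-only medium, against 5223.59, 5329.69 and 5171.3 in deficient medium. These sums describe genes chosen on the same values and carry no test.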
